A study of Arabidopsis thaliana with 6 samples.

Results

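The transcripts of SPX1 (AT5G20150), SPX2 (AT2G26660), SPX3 (AT2G45130) and SPX4 (AT5G15330) were followed in shoots of Arabidopsis thaliana, in the wild type (WT) and in the phod1 mutant. The 4 genes were taken by locus identifier from a deposited table of 21693 genes, and all 4 were in it. Shoots were harvested from seedlings 8 days old, with 3 samples per genotype, and RNA-seq was the only assay. Both genotypes shared one medium and climate, a 1/2-strength Murashige and Skoog agar described as nutrient-rich with 1.0% sucrose and 1.1% agar, 23 °C, and 16 h light with 8 h dark. The labels name no gene for phod1, no accession for the WT and no allele, so the genotype of a library could not be checked by the mutated gene. The labels also do not say whether replicates were grown separately, and the p-values therefore measure only how far these samples differ, part or all of which may be technical.

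SPX proteins are small regulators built around the SPX domain, which binds inositol pyrophosphates, signalling molecules that are plentiful when the cell holds enough phosphate. In that state SPX proteins bind PHR1 and related transcription factors and keep them from the P1BS element in the promoters of phosphate starvation genes. When phosphate runs short the complex falls apart, PHR1 acts, and genes of the SPX family are among those switched on, SPX1 and SPX3 strongly, SPX2 weakly and SPX4 not. The question put to the data was how each of the 4 sensors differed between phod1 and WT shoots, and whether the make-up of the family differed.

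The P1BS letters GNATATNC, which read the same way on both strands, were looked for in the 4 genes because this is the element that PHR1 binds. Within 250 bases before and 50 after the annotated start, SPX1 held 1 match, SPX3 held 2, and SPX2 and SPX4 held none. Of 27443 promoters of nuclear protein-coding genes, 6.25% held at least 1 match in that window. The sequences below are shown because the members differ in where they hold this element, and which of them hold it depends on the window. They are from RefSeq's copy of the genome, build TAIR10.1, in which all 4 genes lie on the plus strand. The submitters name TAIR10, and the deposited tables hold no coordinates. Capitals mark the P1BS letters, and the 250 bases before the start are given for SPX3, with 2 matches, and for SPX2, with none. For SPX1 and SPX4 each match is given with flanking bases on both sides, and the position named is that of the first capital.
SPX3 (chr2:18606160-18606409): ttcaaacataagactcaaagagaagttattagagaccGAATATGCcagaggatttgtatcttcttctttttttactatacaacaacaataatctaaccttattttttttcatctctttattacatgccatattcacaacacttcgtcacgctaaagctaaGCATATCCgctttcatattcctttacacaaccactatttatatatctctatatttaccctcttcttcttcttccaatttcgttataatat
SPX2 (chr2:11338502-11338751): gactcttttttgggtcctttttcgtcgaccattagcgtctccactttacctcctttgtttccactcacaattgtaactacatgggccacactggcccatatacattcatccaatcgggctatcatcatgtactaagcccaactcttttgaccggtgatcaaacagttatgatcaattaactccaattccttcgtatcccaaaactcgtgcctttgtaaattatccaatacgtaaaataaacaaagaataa
SPX1, match at base 23 of the transcribed part: agaaaaaaGGATATTCtaattaga
SPX1, match 735 bases before the start: cctatcaaGAATATTCcatggaat
SPX4, match 338 bases before the start: gacatattGTATATGCatataatc

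The 2 matches of SPX3 began 213 and 90 bases before its start. The match of SPX1 inside the window began at base 23 of the transcribed part (chr5:6802304-6802311), and a further one lay 735 bases before the start (chr5:6801547-6801554). With the window widened to 1000 bases before the start, SPX1, SPX3 and SPX4 held a match and SPX2 held none, against 20.3% of all promoters. A match of letters is a description of sequence, not of binding.

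**Figure D1:**
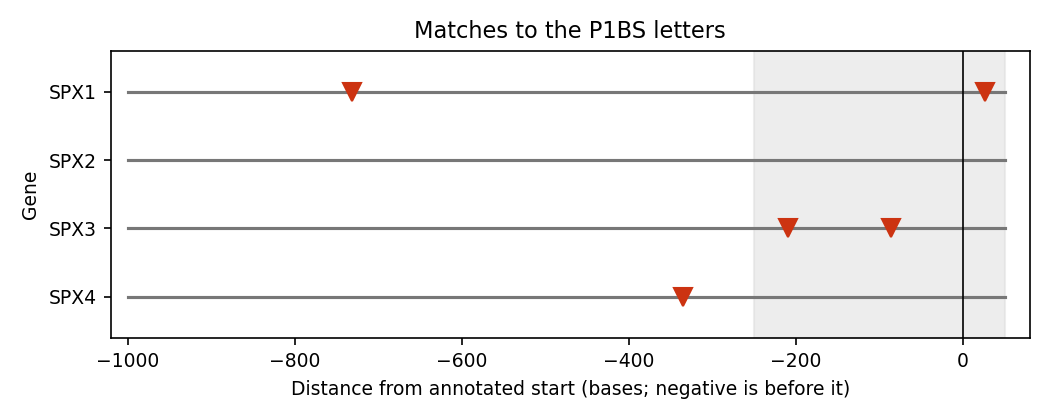
Positions of matches to the P1BS letters GNATATNC (triangles) from 1000 bases before to 50 bases after the annotated start of each SPX gene, with the distance from the start in bases on the horizontal axis. The grey band is the window of 250 bases before to 50 after, in which SPX3 has 2 matches, SPX1 has 1, and SPX2 and SPX4 have none.

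Estimated counts summed to 33183463 to 54720319 units per library, and the spacing of low values put 1 sequenced fragment at about 4 units. A floor of 3 fragments, or 12 units, stood at 0.256 to 0.404 CPM (counts scaled to a common library size by TMM). Such floors, and the counting intervals given further on, allow for counting error alone. Green-tissue markers were abundant, and root markers were close to absent. Together 6 shoot markers took 57660 to 126800 CPM, while 10 root markers of endodermis and root hairs took 1.02 to 1.51 CPM in all, with CASP5 and EXPA7 at 0 in every library. The shoot markers themselves were lower in phod1 (57660 to 70610 CPM) than in WT (100700 to 126800 CPM). Of the 6, 5 were called lower, beside 13% of all genes tested. PSBO1 was also lower without overlap but did not pass (log2 -1.52, adjusted p = 0.0599 by edgeR). It stood at 2545 and 2440 CPM in phod1 1 and 2 but at 7334 CPM in phod1 3. The part of the shoot markers in the results below was not tested, and in whole shoots fewer cells of a type and less RNA per cell cannot be told apart. Of the pair of genes named in the study's title, SHR gave 28.5 ± 0.877 CPM in phod1 against 37.1 ± 1.98 in WT, and PHO1 gave 35.7 ± 4.85 against 11.96 ± 1.21 (SD, n = 3 each).

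SPX1, SPX2 and SPX3 were higher in phod1 than in WT, and SPX4 did not pass the test. Calls were made by edgeR's quasi-likelihood test, fitted and adjusted over 10803 genes. By the ratio of mean CPM the rise was 8.15-fold for SPX1 and 3.00-fold for SPX2. SPX3 went from a handful of fragments in WT to a mean of 10.4 CPM in phod1. The 3 calls stand against a background in which 14.6% of the genes tested were called higher in phod1, 13% lower, and 27.7% in either direction. All 4 genes passed the filter on low counts, SPX3 through its phod1 libraries alone, so that the test of SPX3 was one it could hardly have entered without a difference.

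SPX1, which binds PHR1 when phosphate is ample, was the most abundant member. Its level was 52.1, 57.9 and 36.3 CPM in WT 1 to 3 and 396.5, 391.9 and 403 CPM in phod1 1 to 3. The genotypes did not overlap, and the WT libraries spread far more (coefficient of variation 22.9%) than the phod1 libraries (1.41%). The means were 48.7 ± 11.2 and 397 ± 5.61 CPM (SD, n = 3 each). On the log2 scale phod1 was higher by 3.03 ± 0.190 (SE), at an adjusted p of 0.00038 by edgeR. Of all genes tested, 2.12% had a larger log2 fold change. SPX1 lies on chromosome 5 (TAIR10.1 chr5:6802282-6803655) in 3 exons, and the next gene model, AT5G20160, begins after a gap of 38 bases and was not analysed here.

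SPX2 is the closest relative of SPX1 and acts beside it on PHR1. It stood at 25.6, 25.6 and 26.3 CPM in WT 1 to 3 and at 77.3, 76.4 and 78.5 CPM in phod1 1 to 3. Both genotypes were tight, with coefficients of variation of 1.56% in WT and 1.37% in phod1, and they did not overlap. At about 4 units per fragment, counting error alone would exceed both spreads, so they do not measure how alike the samples were. The means of 25.8 ± 0.402 and 77.4 ± 1.06 CPM (SD, n = 3 each) differed by 1.59 ± 0.0761 on the log2 scale (SE), at an adjusted p of 0.000192. By p-value SPX2 ranked 64th and SPX1 152nd of the 10803 genes, although the rise of SPX2 was the smaller. The rank of SPX2 rests in part on those small spreads. SPX2 lies on chromosome 2 (chr2:11338752-11340950) in 3 exons, between the potassium channel gene KT1, 2013 bases before it, and the heme oxygenase gene TED4, 597 bases after it. KT1 stood at 4.78, 9.69 and 10.05 CPM in WT 1 to 3 and rose to 17.6, 15.6 and 22.3 CPM in phod1 1 to 3 (log2 1.18, adjusted p = 0.0421). Its call held when WT 1 was left out (adjusted p = 0.033) and ended when any other single library was, at adjusted p of 0.0635 to 0.116. TED4 stood at 188.5, 211.9 and 158.6 CPM in WT and at 44.0, 53.9 and 150.5 CPM in phod1, and it did not pass (log2 -1.17, adjusted p = 0.139) except without phod1 3 (-1.93, adjusted p = 0.00456).

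SPX3, a low-abundance member known as a strongly inducible repressor of phosphate starvation genes, was close to undetected in WT. Its units were 5, 10 and 15 in WT 1 to 3, about 7 fragments in all, and 403, 359 and 432 in phod1 1 to 3, about 299 fragments. These are 0.168, 0.213 and 0.483 CPM in WT, of which the first and second lie under the floor of their library, and 10.5, 9.25 and 11.6 CPM in phod1. Every phod1 library was far above every WT library. The ratio from fragments was 40.1, with a 95% exact counting interval of 19.2 to 101, and the fitted difference was 5.18 ± 0.400 (SE) on the log2 scale, at an adjusted p of 0.000681. SPX3 lies on chromosome 2 (chr2:18606410-18607853) in 3 exons, and its gaps to both neighbouring models were 970 bases or more. The model before it, AT2G45120, stood at 1.65 to 3.58 CPM over the 6 libraries, with overlapping genotypes.

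SPX4, known as a repressor of phosphate responses in the shoot, went the other way in its mean and did not pass. It stood at 16.8, 9.92 and 19.6 CPM in WT 1 to 3 and at 10.7, 9.76 and 7.99 CPM in phod1 1 to 3. WT 2 lay among the phod1 libraries, so the genotypes overlapped, and WT 1 and WT 3 lay above all of phod1. The means were 15.4 ± 4.97 and 9.48 ± 1.37 CPM (SD, n = 3 each), and the fitted difference was -0.70 ± 0.277 (SE) on the log2 scale, at an adjusted p of 0.119. Without WT 2 the value was -0.93 and passed (adjusted p = 0.0264), and without any other single library it did not (adjusted p from 0.171 to 0.283). SPX4 lies on chromosome 5 (chr5:4980374-4982231), has 2 annotated transcripts, and ends 41 bases before AT5G15340, which stood at 1.55 to 4.04 CPM over the 6 libraries.

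**Figure D2:**
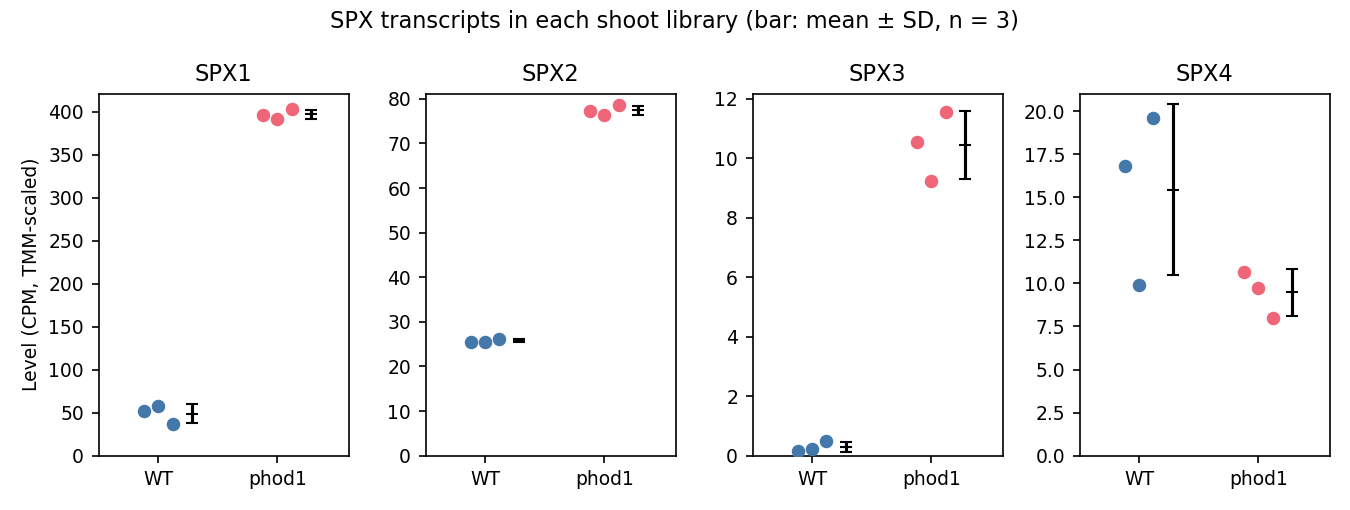
Level of each SPX gene in CPM (vertical axes, each from 0) in the 3 WT and 3 phod1 shoot libraries (points), with mean ± SD beside them. SPX1, SPX2 and SPX3 do not overlap between genotypes, while for SPX4 the WT library at 9.92 CPM lies among the phod1 values.

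The exact two-sided permutation test of CPM gave p = 0.1 for SPX1, SPX2 and SPX3, the smallest that 3 against 3 samples allow, and p = 0.2 for SPX4. Over all genes tested, 47.6% had genotypes without overlap, and 24.7% had every phod1 library above every WT library. In the authors' deposited table the log2 fold changes were 3.02 for SPX1, 1.58 for SPX2 and 5.20 for SPX3. SPX4 was not among the 3902 genes of the authors' deposited table, whose highest adjusted p was 0.04998. No run of 25 bases was shared between the transcripts of any pair of members, the longest shared run being 17 bases between SPX1 and SPX2, and their coding sequences were 63.7% to 74.7% identical where aligned.

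**Figure D3:**
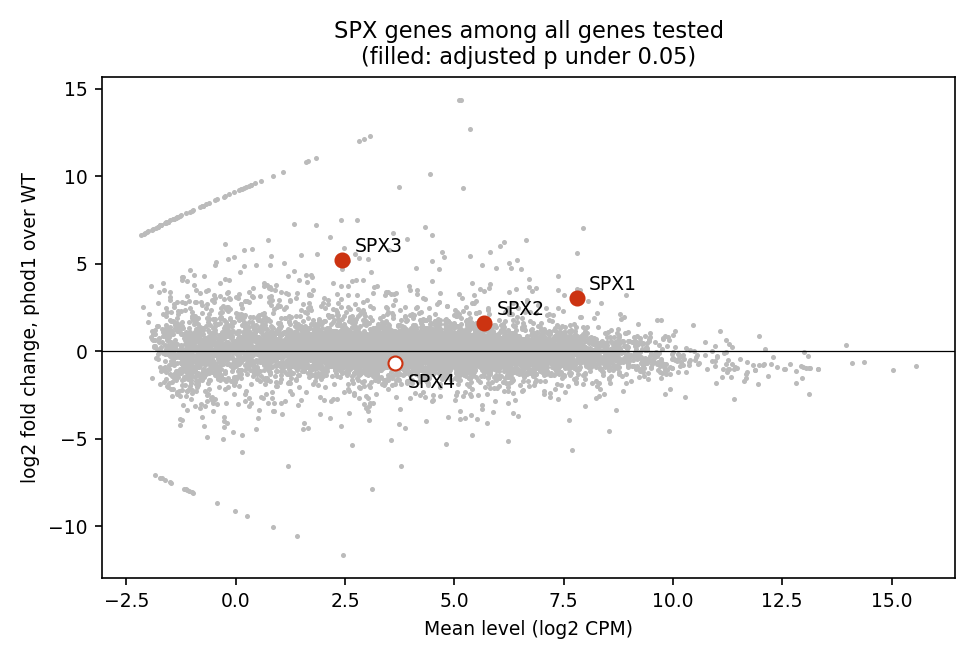
Log2 fold change of phod1 over WT (vertical axis) against mean level in log2 CPM (horizontal axis) for the 10803 genes tested, with the SPX genes named. SPX3 has the largest change of the 4 (5.18) at a low level, SPX1 combines a log2 fold change of 3.03 with the highest level of the 4, and SPX4 (-0.70, open) did not pass.

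The members did not change by the same amount. The within-library log2 ratio of SPX1 to SPX2, which does not depend on the scaling of a library, was 0.89 (SD 0.375) in WT and 2.36 (SD 0.000722) in phod1, a difference of 1.47 (SE 0.216). The ratio of SPX3 to SPX4 differed most, by 5.70 (SE 0.396), and that of SPX1 to SPX4 by 3.71 (SE 0.495). The ratio of SPX1 to SPX3 differed by -1.99 (SE 0.586), the change of SPX3 being the larger. Every pair with SPX3 rests on WT levels of SPX3 at or near the floor, so the size of its difference depends on the prior count. For SPX3 to SPX4 it was 5.91 with a prior count of 0.5 and 5.09 with a prior count of 8. For each of the 6 pairs the genotypes did not overlap. By exact two-sided permutation each pair had p = 0.1, which is also the value adjusted over the 6 pairs and the smallest this design can give.

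To compare levels between the genes, CPM was divided by transcript length. In WT the order was SPX1 (40.4 ± 9.27 CPM per kb), SPX2 (19.97 ± 0.311), SPX4 (11.3 ± 3.64) and SPX3 (0.315 ± 0.186). In phod1 it was SPX1 (329 ± 4.62 CPM per kb), SPX2 (59.97 ± 0.824), SPX3 (11.4 ± 1.26) and SPX4 (6.94 ± 1.00; SD, n = 3 throughout). No neighbours in either order overlapped over the 3 libraries, so SPX3 and SPX4 stood in opposite order in the genotypes. The summed level of the 4 genes was 75.5, 75.3 and 65.3 CPM per kb in WT 1 to 3 and 408, 401 and 413.5 in phod1 1 to 3, 5.66-fold higher by the means.

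SPX1 made up 57.2%, 63.7% and 46.1% of that sum in WT 1 to 3 and 80.6%, 80.96% and 80.8% in phod1 1 to 3. The share of SPX2 was 26.2%, 26.3% and 31.2% in WT and 14.7% in each phod1 library, although its own level was higher there. SPX4 made up 16.3%, 9.65% and 21.96% in WT and 1.92%, 1.78% and 1.42% in phod1. The share of SPX3 was 0.243% to 0.808% in WT and 2.51% to 3.05% in phod1. None of the 4 shares overlapped between genotypes (exact two-sided permutation p = 0.1 each, the smallest possible). As parts of one sum the shares are not separate results, since a rise of SPX1 alone lowers the others. The level of SPX4 itself overlapped.

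**Figure D4:**
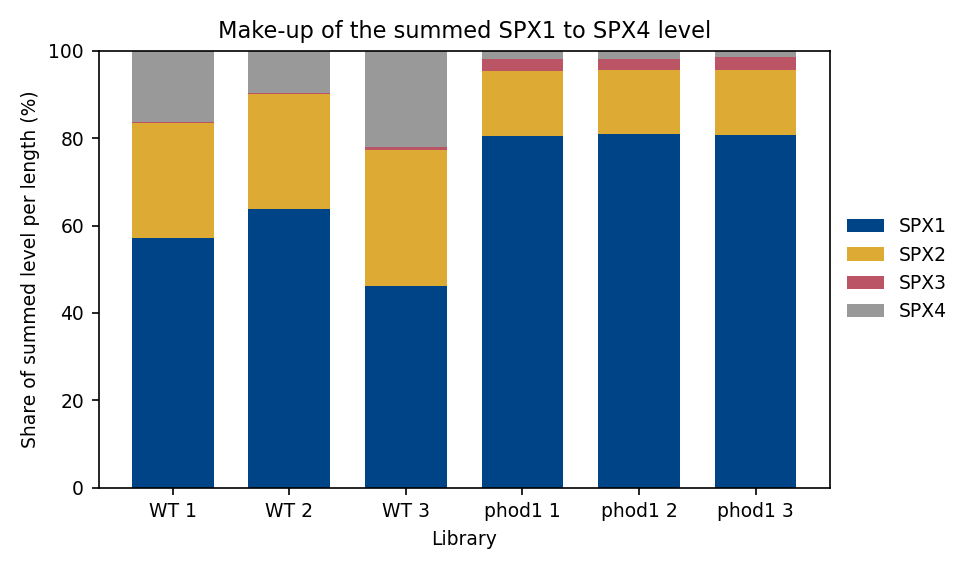
Share of each SPX gene, in percent, in the summed SPX1 to SPX4 level per transcript length, one bar per library. SPX1 takes 46.1% to 63.7% in WT against 80.6% to 80.96% in phod1, and SPX4 takes 9.65% to 21.96% in WT against 1.42% to 1.92% in phod1.

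Of the transcription factors that SPX proteins bind, PHR1 (AT4G28610), which switches on phosphate starvation genes through P1BS, was lower in phod1. It stood at 73.8, 74.4 and 62.6 CPM in WT 1 to 3 and at 41.6, 42.1 and 51.99 CPM in phod1 1 to 3, without overlap at these TMM-scaled levels. Before scaling, WT 3 held 1944 units and phod1 3 held 1945, at like library totals. The fitted difference was -0.64 ± 0.132 (SE) on the log2 scale, at an adjusted p of 0.0176. Leaving out any one of WT 1, WT 2, phod1 1 and phod1 2 ended this call, at adjusted p of 0.0533 to 0.0611. Its relatives PHL1 (log2 fold change 0.15, adjusted p = 0.848) and PHL3 (0.02, adjusted p = 0.923) did not pass, and PHL2 and PHL4 were not analysed here. Per length, the 4 SPX genes together stood at 1.81, 1.79 and 1.85 times PHR1 in WT 1 to 3 and at 17.4, 16.9 and 14.1 times PHR1 in phod1 1 to 3. SPX4 alone kept overlapping ratios to PHR1, at 0.173 to 0.405 for WT and 0.199 to 0.333 for phod1.

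Of 16 further genes for proteins with an SPX domain, 14 were in the table and 10 passed the filter, of which 3 rose, 1 fell and 6 did not pass, at a median log2 fold change of 0.30 against 0.014 over all genes tested. Over all genes tested 14.6% were called higher and 13% lower, and with 10 genes the 4 calls are not read as more than that background. The members that rose belong to the PHO1 family of phosphate exporters. PHO1;H1 (AT1G68740) stood at 13.4 ± 3.37 CPM in WT and rose to 53.8 ± 6.05 in phod1, by 2.01 ± 0.221 (SE) on the log2 scale at an adjusted p of 0.00214. The exporter PHO1 itself rose by 1.58 on the log2 scale. PHO1;H10 (AT1G69480) rose by 2.39 ± 0.384 (SE) on the log2 scale, at 1.004 ± 0.454 CPM in WT and 5.32 ± 0.554 in phod1 (adjusted p = 0.00775). The ubiquitin ligase gene NLA (AT1G02860), whose product marks phosphate transporters for breakdown, fell, with 8.27 ± 1.297 CPM in WT, 5.02 ± 0.750 in phod1 and a log2 difference of -0.72 ± 0.185 (SE; adjusted p = 0.0356). Leaving out any single library but phod1 2 ended the call of NLA, at adjusted p of 0.0576 to 0.103. The vacuolar importer gene VPT1 and its relative PHT5;2 were not analysed here.

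The inositol pyrophosphates that SPX domains bind are made from inositol by a chain of synthases and kinases. Of 12 genes listed for this chain, 10 were tested, of which 4 rose and none fell, the other 6 not passing, at a median log2 fold change of 0.07. Beside the 14.6% of all genes tested that were called higher, and with the count at 1 or 2 whenever a single library was left out, the 4 calls are not read as particular to this chain. MIPS1 (AT4G39800), of the synthase that makes inositol phosphate, stood at 183 ± 19.6 CPM in WT and rose to 278.5 ± 11.7 in phod1, by 0.61 ± 0.0997 (SE) on the log2 scale at an adjusted p of 0.00835. MIPS2 (log2 0.58, adjusted p = 0.0409) and the kinase genes ITPK2 (log2 1.04, adjusted p = 0.0406) and IPK2b (log2 0.41, adjusted p = 0.0316) passed narrowly. Each of these 3 calls was lost without any one of 5 libraries. MIPS2 passed again only without WT 2, ITPK2 only without phod1 2 and IPK2b only without WT 3. ITPK1, a kinase of the pyrophosphate step, had means of 75.3 ± 7.44 CPM for WT and 88.6 ± 1.77 CPM for phod1 (log2 0.23, adjusted p = 0.134). The diphosphoinositol kinase genes VIH1 and VIH2 were not analysed here.

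Of 24 genes listed as outputs of the phosphate starvation response, 22 were tested, of which 20 rose, none fell and 2 did not pass, at a median log2 fold change of 3.46, beside 14.6% higher and 13% lower over all genes tested. That count and median include IPS1, PHT1;2, PHT1;9 and RNS1, at 0 to 4 units in every WT library. Like SPX3, they passed the filter through phod1 libraries alone and could hardly have entered the test without a difference. The 20 also include PHO2, a regulator of the response rather than an output (log2 1.19, adjusted p = 0.00115 by edgeR). The 3.03 of SPX1 lay under the median and the 5.18 of SPX3 above it. Among the outputs the 4 with the smallest p were the miR399 decoy AT4 (log2 7.05), the acid phosphatase gene PAP17 (3.51), the pyrophosphatase gene PPSPASE1 (6.23) and the sulfolipid synthesis gene SQD1 (1.81). The list was chosen with earlier results of these data known and is not independent support.

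**Figure D5:**
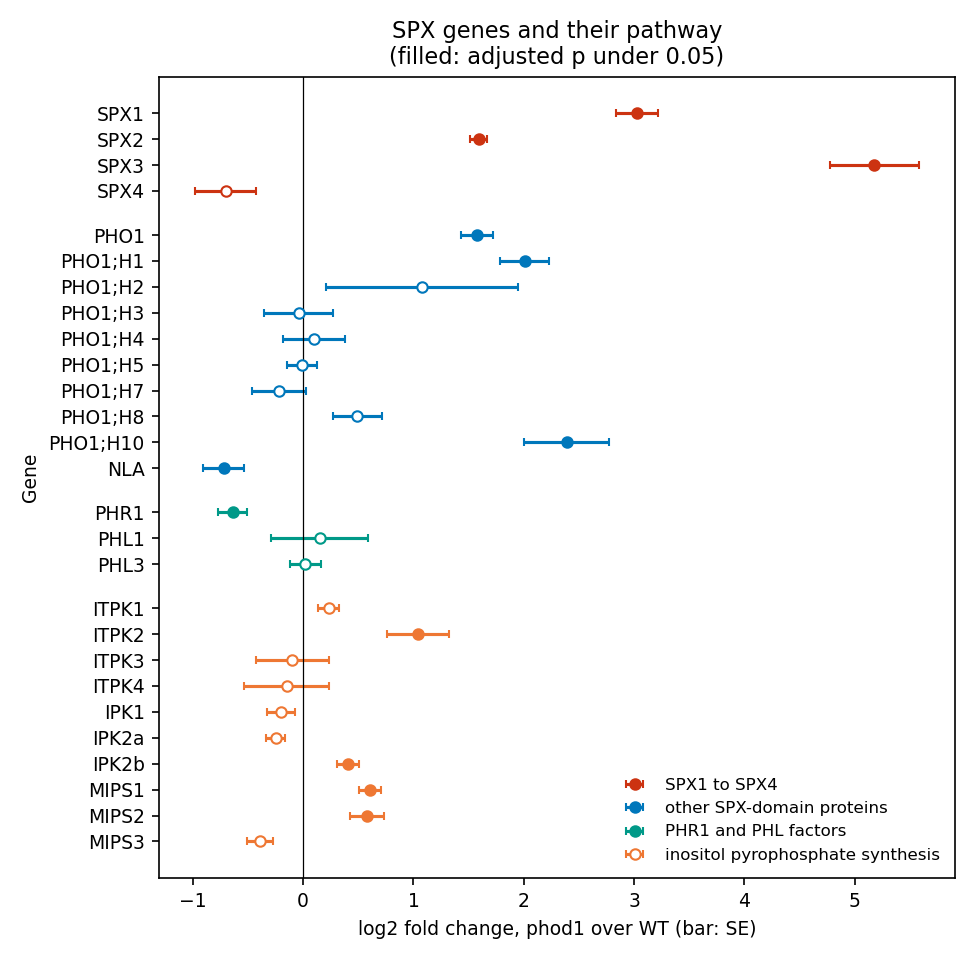
Log2 fold change of phod1 over WT with its SE (horizontal axis) for the tested SPX genes, other SPX-domain genes, PHR1 and its relatives, and genes of inositol pyrophosphate synthesis (vertical axis). Filled points passed an adjusted p of 0.05, with SPX3 farthest to the right at 5.18 and NLA the lowest at -0.72.

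The genes whose profile was most like each member were found by the root mean square difference of log2 CPM, centred per gene, over the 6 libraries. With only 2 groups in the data, a gene is near another mainly when its change between genotypes is alike. Nearest to SPX1 was PPCK1 (difference 0.165), the kinase of phosphoenolpyruvate carboxylase, with means of 24.8 ± 2.37 CPM for WT and 177 ± 3.19 CPM for phod1. The jasmonate pathway-related reductase gene OPR1 (0.197) and AT5G52740 (0.201) followed. Nearest to SPX2 were the annexin gene ANNAT1 (0.0372; 301 ± 15.7 and 877 ± 11.8 CPM), the ammonium transporter gene AMT1;2 (0.0575) and LSH6 (0.0677). Nearest to SPX3 were the cytochrome P450 gene CYP81D11 (0.218; 4.52 ± 1.06 and 149 ± 5.18 CPM), AT1G30730 (0.257) and the chloroplast aldo-keto reductase gene ChlAKR (0.263). In WT AT5G52740, AT1G30730 and ChlAKR held 6 to 18, 0 to 4 and 6 to 17 units, so their likeness there rests on few fragments and on the prior count. All of these genes, like SPX3, passed the filter through their phod1 libraries, as too few of their WT libraries reached it.

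Nearest to SPX4 were the cyclin gene CYCD6;1 (0.141), known in the root as a direct target of SHORT-ROOT, the Mediator subunit gene MED6 (0.144) and the peptidase gene PREP1 (0.147). CYCD6;1 stood at 8.65, 5.40 and 10.6 CPM in WT 1 to 3 and at 5.30, 4.10 and 4.54 CPM in phod1 1 to 3. As in SPX4, WT 2 was the lowest WT library, and the gene did not pass (log2 -0.82, adjusted p = 0.0795) except without WT 2 (adjusted p = 0.0238) or by DESeq2 (adjusted p = 0.0284).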

How the data were processed

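The authors deposited estimated counts per gene and sample, whole numbers that are not normalized, and a table of their own comparison with a mean normalized signal, log2 fold changes, a standard error and a test score, p-values and adjusted p-values, per the file headers. CASAVA 1.4, STAR, StringTie and TAIR10 are named, with no role, per the submitters' processing notes. The counting command, annotation and strand setting were not given in the sources used here, so reads of overlapping models on opposite strands may not have been told apart. Estimated counts were rounded, which changed no value, and the planned count test was kept. Genes passing filterByExpr (minimum count 10, minimum total 15) went through TMM scaling and the quasi-likelihood test of edgeR 4.0.16 in R 4.3.3 (glmQLFit and glmQLFTest, genotype only, all 6 libraries, two-sided), and p-values were adjusted by Benjamini-Hochberg across that whole set and called under 0.05. TMM factors were split by genotype, at 0.857 to 0.907 in WT and 1.10 to 1.17 in phod1, which lowers phod1 levels against WT. The size of modest changes, such as those of PHR1, NLA and SPX4, depends on this scaling. The SE is the log2 fold change divided by the square root of F. Ratios between members and profiles used log2 CPM with a prior count of 2. On simulated counts (10662 genes tested, 71 called) the fit called 4% of the 100 genes given a 2-fold change and 65.7% of the 99 given a 4-fold one. In the data 2988 genes were called, so the adjustment set a looser cutoff there and these rates do not carry over. A gene that did not pass may still have changed.

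No libraries held identical values, and no pair agreed within sampling noise (chi-square per degree of freedom 40.0 or more). Same-numbered libraries did not deviate together, so numbers were not taken as pairs. Of 21693 identifiers, 20318 matched a locus in RefSeq (TAIR10.1), the source of symbols, lengths (longest transcript) and sequences. The members and lists were chosen with earlier results of these data known. Named were the members, SHR and PHO1, up to 4 called genes per list with the smallest p, the role-bearing genes PHR1, PHL1, VPT1, NLA, VIH2 and ITPK1, the 3 genes nearest each member, and adjoining models. PHL3, CASP5, EXPA7 and PHO2 were chosen after their values were seen. Alternatives were DESeq2 1.42.0 and its size factors, no filter, the replicate block, values divided by 4, and each library left out.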

Additional observations from a re-analysis of the deposited data

How the results depend on the processing

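The direction and call of SPX1, SPX2 and SPX3 held under every alternative run, with log2 fold changes of 2.85 to 3.17, 1.58 to 1.6 and 4.94 to 5.73. SPX4 stayed negative, from -0.93 without WT 2, where it passed, to -0.49 without WT 3. Under DESeq2 its adjusted p was 0.0653, and with no filter and the size factors of DESeq2 0.136 and 0.115. The 6 differences between members kept their direction in every setting, and SPX1 minus SPX3 ranged from -2.57 to -1.40, the latter with a prior count of 8. Leaving out 1 library gave 0 to 1 further SPX-domain genes called lower, 0 to 1 PHR1 and PHL genes called lower, and 1 to 2 inositol genes called higher with 0 to 1 lower. Of the leave-one-out fits, SHR (-0.41 to -0.33) passed only without WT 1 and PREP1 (-0.88 to -0.61) only without WT 2. AT1G30730, at 0 to 4 units in WT, ranged from 5.14 to 9.54. AT2G45120 ranged from -0.41 to 0.15, PHL1 ranged from -0.21 to 0.58 and PHL3 from -0.05 to 0.15. DESeq2 called 2 inositol genes lower. The order by level was the same per coding length. The core ATATNC, in 55.4% of promoters, was in all 4 members, and the full letters before the start alone were in 1. The window of 1000 bases and the settings for shares, lists and genes other than the members were chosen after seeing the data.

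With the replicate block 1500 genes passed in place of 2988, with 1 inositol gene called higher and 0 PHR1 and PHL or further SPX-domain genes called lower. SPX1, SPX2 and SPX3 passed with it (adjusted p = 0.0127, 0.0119 and 0.0131) and SPX4 did not (0.220). With the pairing by number the ratio differences equal those of the group means. Correlations of deviations for same-numbered libraries were -0.045 to 0.010, and the numbers are shared names only. Depth limits SPX3 in WT, at about 7 fragments in all. The cause of lost calls was not tested.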

Other observations

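In the phod1 libraries the log2 ratio of SPX1 to SPX2 units was 2.3583, 2.3585 and 2.3596, a spread far under the counting error of 0.0579 to 0.0582 that the fragments of a single library give. In WT the same ratio was 1.03, 1.18 and 0.466, with counting errors of at most 0.133.

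Among the WT libraries SPX1 was highest and SPX4 lowest in WT 2, and SPX1 was lowest and SPX3 and SPX4 were highest in WT 3. The place of SPX3 rests on about 1, 2 and 4 fragments in WT 1 to 3. The summed SPX level over PHR1 nevertheless stayed between 1.79 and 1.85 in WT. With 3 libraries this is a description with no test.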
